A study of Homo sapiens with 8 samples.

Results

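The interferon ligand genes IFNB1, IFNE, IFNL1, IFNL2 and IFNL3 and the interferon receptor genes IFNAR1, IFNAR2, IFNLR1, IFNGR1 and IFNGR2 were followed across 8 RNA-seq libraries, to ask whether a ligand was detectable where interferon-stimulated genes rose. These 10 genes were taken by symbol from the gene tables of all libraries, which hold 60649 gene identifiers, of which 19942 are protein-coding. HCT116 is a human colorectal cancer cell line, and UF1hypo is a single clone made from it in which exon 4 was removed from one of the UHRF1 alleles by CRISPR-Cas9 targeting, followed by excision of the selection cassette with transient Cre. Both lines received a lentiviral hairpin and puromycin selection as stable pools, either the control hairpin shScr or the hairpin against UHRF1 (shUHRF1), with 2 libraries of polyA RNA in each of the 4 groups. The labels do not say whether the libraries of a group came from separate cultures, and the harvest day of these libraries was not given in the sources used here. The p-values therefore measure the spread between these libraries, which may be technical.

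Interferons are secreted proteins that cells release mainly when receptors for viral nucleic acids are triggered. Type I interferons (among them IFNB1, IFNE and the alpha genes) bind the receptor made of IFNAR1 and IFNAR2, type III or lambda interferons (IFNL1, IFNL2, IFNL3 and IFNL4) bind IFNLR1 paired with IL10RB, and the type II interferon IFNG binds IFNGR1 and IFNGR2. Types I and III signal through the kinases JAK1 and TYK2 to a complex that contains STAT2 and IRF9 and switches on interferon-stimulated genes. Lambda receptors are largely restricted to epithelial cells, the gut lining included. UHRF1 brings the maintenance DNA methyltransferase to newly copied DNA.

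The TPM (transcript abundance corrected for gene length and scaled to the same total in each library) of UHRF1, the targeted gene, was 87.5 and 98.4 in HCT116 with shScr and 31.7 and 32.7 with shUHRF1, and 47.3 and 50.6 in UF1hypo with shScr and 34.1 and 21.1 with shUHRF1, lower in each knockdown library than in the controls of its line. Sequencing depth, which coverage divided by FPKM gives, was 5.42 to 7.83 gigabases of aligned sequence per library. The UF1hypo shUHRF1 replicates stood apart: their difference followed the GC content of the transcripts (Spearman's rho of 0.81 over 13781 genes, against −0.04 and −0.07 for shScr and shUHRF1 in HCT116 and −0.51 for shScr in UF1hypo), and the median absolute difference between them was 0.45 on the log2 scale, against 0.12 to 0.16 in the other groups. Of 10 epithelial marker genes 8 were above 1 TPM in every library, with VIL1 and CDX1 below 1 TPM throughout. The summed TPM of 16 leukocyte and plasmacytoid dendritic cell markers was 4.02 to 4.98 in HCT116, and in UF1hypo 5.36 and 5.12 with shScr and 10.7 and 6.80 with shUHRF1. Among them IL3RA was listed at 0 in all libraries, and PTPRC, which marks all leukocytes, was listed at 0 in 6 libraries and at 0.0561 and 0.0728 in UF1hypo shUHRF1. The plasmacytoid dendritic cell markers CLEC4C and LILRA4 were at 0.203 and 0.227 and at 0.989 and 0.464 in UF1hypo shUHRF1, where the ligands described next were highest, and were listed at 0 elsewhere except for LILRA4 at 0.260 in replicate 2 of HCT116 shScr. All libraries came from a cultured cancer cell line and a clone of it. The source of these low values was not tested.

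The ligand genes lie in separate places of the genome (GRCh38): IFNB1 (ENSG00000171855.7, chr9:21077104-21077942, minus strand) and IFNE (ENSG00000184995.7, chr9:21480839-21482313, minus strand) in the type I cluster, and the lambda genes next to each other on chromosome 19. IFNL3 (ENSG00000197110.9, chr19:39243553-39245129) is on the minus strand, IFNL2 (ENSG00000183709.8, chr19:39268396-39270188) and IFNL1 (ENSG00000182393.3, chr19:39296407-39298673) on the plus strand. Because the lambda genes were detected together and IFNB1 was not detected at a like level, the 250 bases before the start sites of IFNL1 (chr19:39296157-39296406, plus strand), IFNL2 (chr19:39268146-39268395, plus strand) and IFNB1 (chr9:21077943-21078192, minus strand) are shown with those of the lambda receptor chain IFNLR1 (chr1:24187290-24187539, minus strand), from the RefSeq promoter table for GRCh38.p14. They are written 5′ to 3′ on the strand of the gene, with capitals for matches to an ISRE core (GAAANNGAAA, the element bound by the complex with STAT2 and IRF9 and by IRF proteins), a GAS core (TTCNNNGAA, bound by STAT proteins) or a kappaB element (GGGANNTTCC), searched on both strands.
IFNL1: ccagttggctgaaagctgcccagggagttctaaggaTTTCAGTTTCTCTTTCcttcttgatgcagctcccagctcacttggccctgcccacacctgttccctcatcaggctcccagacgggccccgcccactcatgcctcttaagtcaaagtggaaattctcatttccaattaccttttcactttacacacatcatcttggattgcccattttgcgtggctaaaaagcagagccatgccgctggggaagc
IFNL2: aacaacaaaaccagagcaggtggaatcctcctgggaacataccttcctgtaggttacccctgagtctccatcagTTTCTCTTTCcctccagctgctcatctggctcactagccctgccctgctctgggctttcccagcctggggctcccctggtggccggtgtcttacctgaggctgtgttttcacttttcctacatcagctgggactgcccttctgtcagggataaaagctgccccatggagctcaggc
IFNB1: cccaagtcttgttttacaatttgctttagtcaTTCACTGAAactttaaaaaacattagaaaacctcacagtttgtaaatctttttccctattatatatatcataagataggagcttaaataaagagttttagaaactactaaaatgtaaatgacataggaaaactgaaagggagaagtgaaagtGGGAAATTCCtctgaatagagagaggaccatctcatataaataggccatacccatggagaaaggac
IFNLR1: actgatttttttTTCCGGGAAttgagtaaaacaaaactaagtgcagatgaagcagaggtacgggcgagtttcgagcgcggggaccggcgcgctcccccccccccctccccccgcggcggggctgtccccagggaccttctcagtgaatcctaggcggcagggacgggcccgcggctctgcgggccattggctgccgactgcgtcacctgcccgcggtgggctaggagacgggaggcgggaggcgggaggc

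The promoters of 9 members were in that table, each as 250 bases before to 50 bases after a start site, and 35116 such promoters served as background. The IFNL1 promoter held 2 overlapping ISRE cores on the minus strand, from −214 to −205 and from −208 to −199 relative to the start, and the IFNL2 promoter held 1 from −176 to −167. The promoter at the first of the 2 IFNL3 starts differed from that of IFNL2 at 1 of 300 positions and had the same match, and that at the second had none. An ISRE core was found in 3.57% of all promoters. The search accepted only this spacing of the GAAA repeats. The IFNB1 sequence holds GAAA repeats at other spacings just before its kappaB element, so a missing match does not show that IRF proteins do not bind there. A GAS core, found in 7.66%, was present in the promoters of IFNB1 (−218 to −210) and IFNLR1 (−238 to −230), and a kappaB element, found in 1.61%, in those of IFNB1 (−66 to −57) and IFNGR2 (−99 to −90). None of these letters were found in the promoters of IFNE, IFNAR1 and IFNGR1. CpG dinucleotides, the sites at which DNA is methylated, numbered 1 in the IFNB1 and IFNL2 promoters, 1 and 2 at the first and second start of IFNL3, 2 in the promoter of IFNE and 6 in that of IFNL1, against a median of 14 over all promoters with quartiles of 4 and 28. The receptor promoters were richer, with 31 CpG in IFNLR1 and 44 in IFNGR2, more than in 79.3% and 95.8% of promoters, and with 19 and 30 at the alternative starts of IFNAR1 and 29 and 25 at those of IFNGR1. DNA methylation was not analysed here.

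IFNL1 reached the highest TPM of the ligands. It was listed at 0 and 0.124 TPM in HCT116 with shScr and 0 and 0.123 with shUHRF1, and 0.627 and 0 in UF1hypo with shScr and 14.0 and 9.55 with shUHRF1. The last 2 libraries thus lay above 9 TPM and the other 6 below 1 TPM, without overlap. In aligned bases over its 775-base transcript, IFNL1 had 35214 and 22285 in UF1hypo shUHRF1 and at most 1616 elsewhere. For scale, among genes with a single transcript, values under 1500 aligned bases were most often 150 and next most often 300, so a TPM of about 0.12 for IFNL1, from 234 to 270 bases, is near the smallest values that the tables hold. The tables hold no read counts, hence an exact 0 is given as listed at 0, with no interval.

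IFNL3 and IFNL2 had the same pattern at lower levels. IFNL3 was listed at 0 in the 4 HCT116 libraries, at 0 and 0.112 TPM in UF1hypo with shScr, and at 10.3 and 4.65 with shUHRF1. IFNL2 was also listed at 0 in the 4 HCT116 libraries, at 0.774 and 0 in UF1hypo with shScr, and at 4.76 and 1.88 with shUHRF1. For both genes, each UF1hypo shUHRF1 library was above all other libraries. The transcripts of IFNL2 and IFNL3 were identical at 664 of 681 aligned bases (97.5%), against 81.7% and 85.7% for IFNL1 with IFNL2 and with IFNL3, so how reads were divided between IFNL2 and IFNL3 is uncertain. Summed, IFNL2 and IFNL3 had 0 TPM in the HCT116 libraries, 0.774 and 0.112 in UF1hypo shScr, and, after knockdown there, 15 and 6.53, a range that overlapped that of IFNL1. The pseudogene IFNL3P1, whose transcript was 89.6% identical to IFNL3 over 309 aligned positions, was at 3.86 and 3.22 in UF1hypo shUHRF1, at 1.23 and 0.226 in UF1hypo shScr, and at 0.227 or 0 in HCT116. IFNL4, the remaining lambda gene, was listed at 0.223 and 0.0623 in UF1hypo shUHRF1 and at 0 in the other 6 libraries.

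IFNE, a type I interferon made constitutively by epithelia of the reproductive tract, differed from the lambda genes in that it was above 0 in every library. Its TPM was 0.320 and 0.165 in HCT116 with shScr and 1.02 and 1.23 with shUHRF1, and 0.366 and 0.239 in UF1hypo with shScr and 1.56 and 5.54 with shUHRF1. In both lines, each knockdown library was above both control libraries. The higher of the UF1hypo shUHRF1 values was in replicate 2 for IFNE and in replicate 1 for the lambda genes. With 35.5% the IFNE transcript had the lowest GC content of the members, and those of IFNL1, IFNL2 and IFNL3 had 57.5%, 55.1% and 61.2%. IFNB1, with 41.7% GC and values under 1 TPM, was also higher in replicate 1. The part of GC content in these differences was not tested. IFNE lies within the long non-coding gene MIR31HG on the same strand. MIR31HG was at 0.286 and 0.820 TPM in HCT116 with shScr and 0.848 and 1.46 with shUHRF1, and 0.855 and 1.17 in UF1hypo with shScr and 3.90 and 3.59 with shUHRF1, again higher in the knockdown libraries of each line. Reads of the 2 genes where they overlap cannot be told apart.

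IFNB1, the type I interferon first released by most virus-infected cells, stayed at trace level. It was listed at 0 and 0.127 TPM in HCT116 shScr, at 0 in both HCT116 shUHRF1 and both UF1hypo shScr libraries, and at 0.385 and 0.107 in UF1hypo shUHRF1. The groups overlapped, since 0.127 in an HCT116 control library exceeded 0.107 in a UF1hypo shUHRF1 library, and the values corresponded to 300, 1050 and 271 aligned bases. In a limma fit without the TPM filter, the UF1hypo knockdown value was 0.31 on the log2(TPM + 1) scale (standard error 0.112, adjusted p = 0.14).

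The remaining ligands were sought to complete the family. Of 22 listed interferon genes, 13 were listed at 0 in all 8 libraries, among them IFNG, IFNK and 11 of the 13 alpha genes. IFNA1 was at 0.584 TPM in replicate 1 of HCT116 shScr and 0.165 in replicate 2 of UF1hypo shUHRF1, IFNA21 at 0.0883 in the latter library, and IFNW1 at 0.178 in replicate 2 of HCT116 shScr. These values were at 0 in the other replicate of the group. No ligand other than IFNL1, IFNL2, IFNL3 and IFNE exceeded 1 TPM in any library.

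Upon UHRF1 knockdown in UF1hypo cells, IFNL1, IFNL3, IFNL2 and IFNE rose. The fit was limma on log2(TPM + 1) across all protein-coding genes with TPM above 1 in at least 1 library of the comparison, and called genes had a Benjamini-Hochberg adjusted p below 0.05 with a log2 fold change beyond 1 in either direction. The log2 fold change, whose size is set partly by the added 1 for genes near 0, was 3.30 for IFNL1 (95% interval 2.65 to 3.96, limma adjusted p = 0.000213), 2.92 for IFNL3 (2.22 to 3.62, adjusted p = 0.000595), 1.61 for IFNL2 (0.78 to 2.45, adjusted p = 0.0229) and 1.65 for IFNE (0.78 to 2.53, adjusted p = 0.0253). Of the members, 9 were tested and 4 were called, all higher, where 8.53% of 13620 tested genes were called and 7.39% were called higher. The 4 ligands passed the TPM filter only through the knockdown libraries and so had to differ in level, which makes this count no support for a response of the family. An exact permutation test of 1 gene between groups of 2 libraries has a smallest two-sided p of 0.33.

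The rises of IFNL1 and IFNL3 were called in UF1hypo whichever of its libraries was left out, with log2 fold changes of 2.95 to 3.65 and 2.42 to 3.42. IFNL2 was no longer called without replicate 2 of UF1hypo shScr (1.2, limma adjusted p = 0.143) or without replicate 1 of UF1hypo shUHRF1 (1.11, adjusted p = 0.0577), and its adjusted p ranged from 0.00412 to 0.15 over all alternatives. IFNE was not called without replicate 1 of UF1hypo shScr (1.72, limma adjusted p = 0.109), without replicate 2 of UF1hypo shScr (1.58, adjusted p = 0.123) or without replicate 2 of UF1hypo shUHRF1 (0.98, adjusted p = 0.00524, below the fold threshold), over a range of 0.000352 to 0.13. With the GC trend of each library removed, the log2 fold changes were 3.08 for IFNL1, 2.62 for IFNL3, 1.44 for IFNL2 and 1.87 for IFNE, all 4 still called. IFNL2 and IFNE also lost their calls with quantile normalization (1.36 and 1.26), with the UF1hypo groups fitted alone and with library weights, and IFNL2 with a pseudocount of 0.1 (3.39).

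In HCT116 cells, no member was called upon UHRF1 knockdown by limma, where 0.0708% of 12704 tested genes were called in either direction and 0.0472% were called higher. Of the 6 members tested there, 0 had an unadjusted p below 0.05, beside 810 of the 12704 tested genes. IFNE, the only ligand that passed the filter, had a log2 fold change of 0.78 (95% interval −0.12 to 1.67, limma adjusted p = 0.873). This fit estimated the spread of each gene from all 8 libraries, among them the UF1hypo shUHRF1 replicates with their larger difference. With the HCT116 groups fitted alone 89 genes were called, and with library weights 101, still without a member. IFNE then had limma adjusted p of 0.206 and 0.105. What lowered the number called in the shared fit was not tested. IFNL1 in a fit without the filter was at −0.00 (−0.63 to 0.63), and IFNL2 and IFNL3, listed at 0 in all 4 libraries, gave no value.

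The effect of the knockdown was larger in UF1hypo than in HCT116 for IFNL1, by 3.30 on the log2 scale (limma on the difference of the effects, standard error 0.404, adjusted p = 0.00342), and for IFNL3, by 2.92 (standard error 0.433, adjusted p = 0.00852). These were the 2 members called of 9 tested, beside 5.09% of 13781 tested genes called in either direction and 4.54% called with the more positive effect in UF1hypo. The lambda genes entered this test only through the UF1hypo shUHRF1 libraries, which favours a positive difference, so this count is no support either. The difference of IFNL3 lost its call without replicate 1 of HCT116 shUHRF1 (limma adjusted p = 0.0611) or without replicate 2 (adjusted p = 0.0663), over a range of 0.000505 to 0.0663, at the same size of 2.92. The difference was 1.61 for IFNL2 (limma adjusted p = 0.131) and 0.88 for IFNE (95% interval −0.36 to 2.12, adjusted p = 0.455), so a different response of IFNE in the 2 lines was not shown. It was called for IFNL2 without replicate 2 of UF1hypo shUHRF1 (2.11, limma adjusted p = 0.0158, range 0.0158 to 0.36) and for IFNE without replicate 1 of that group (1.55, adjusted p = 0.0117, range 0.0117 to 0.759) or after the GC correction (1.03, adjusted p = 0.044).

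Between UF1hypo shScr and HCT116 shScr, where the lost UHRF1 allele and the choice of a single clone cannot be told apart, no ligand reached the TPM filter. Without the filter the log2 differences were 0.41 for IFNL2, 0.27 for IFNL1, 0.08 for IFNL3, 0.07 for IFNE and −0.09 for IFNB1, with limma adjusted p between 0.645 and 0.955. The 5 receptor members were tested and 0 were called, beside 3.54% of 12856 tested genes called and 2.59% called higher. At an unadjusted p below 0.05 there were likewise 0 members, beside 2341 of the 12856 tested genes.

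**Figure D1:**
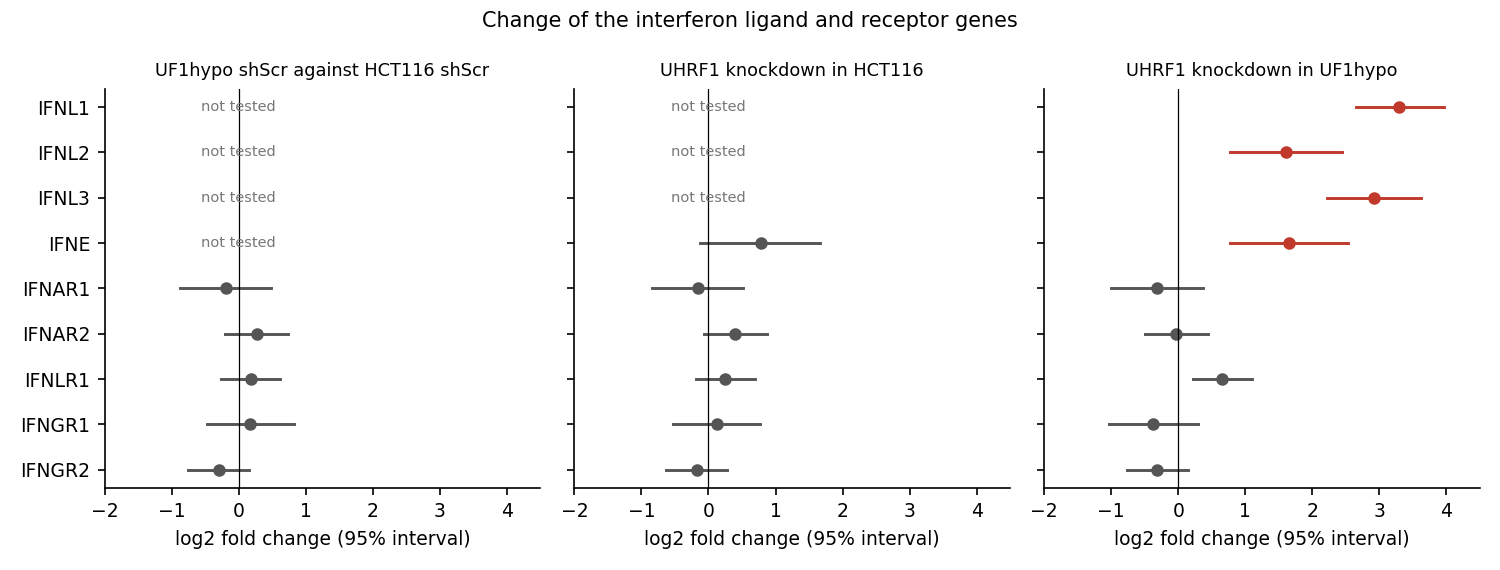
Log2 fold change on the log2(TPM + 1) scale (x axis) with its 95% interval from the limma fit for each member (rows) in 3 comparisons, called genes in red. IFNB1 is not shown because it did not exceed 1 TPM in any library, and "not tested" marks genes under the filter in that comparison. IFNL1, IFNL2, IFNL3 and IFNE are called for the knockdown in UF1hypo, and the intervals of the receptor genes include 0 except that of IFNLR1 in UF1hypo.

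The receptor chains were above 7 TPM in every library. IFNLR1 (ENSG00000185436.12, chr1:24154168-24187959, minus strand), which gives lambda receptors their specificity, was at 7.74 and 7.71 TPM in HCT116 with shScr and 10.5 and 8.35 with shUHRF1, and 8.61 and 9.20 in UF1hypo with shScr and 14.8 and 14.6 with shUHRF1. Both UF1hypo shUHRF1 libraries were above the other 6. The log2 fold change in UF1hypo was 0.66 (95% interval 0.22 to 1.1, limma adjusted p = 0.057) and that in HCT116 0.25 (−0.19 to 0.69), neither called, and their difference of 0.42 had an adjusted p of 0.488. The adjusted p in UF1hypo ranged from 0.027 (without replicate 2 of UF1hypo shUHRF1) to 0.371 over the alternatives, and the change stayed under the fold threshold in all.

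IL10RB, which is not among the 10 members but completes the lambda receptor and also serves the interleukin-10 family, was at 19.1 and 19.8 TPM in HCT116 with shScr and 8.90 and 13.9 with shUHRF1, and in UF1hypo at 23.6 in both shScr libraries and 19.3 and 28.9 with shUHRF1. In HCT116 both knockdown libraries were below both controls, a log2 fold change of −0.75 (standard error 0.256, limma adjusted p = 0.531). The readthrough gene IFNAR2-IL10RB, which shares exons with both neighbours, was at 5.15 in replicate 1 of HCT116 shUHRF1, where IL10RB was lowest, and at 2.00 or less elsewhere, so the division of reads between them is uncertain.

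The type I receptor chains showed no change past the threshold. IFNAR1 (ENSG00000142166.13, chr21:33324429-33359864, plus strand) was at 15.2 and 16.2 TPM in HCT116 with shScr and 13.3 and 14.5 with shUHRF1, and 14.9 and 12.4 in UF1hypo with shScr and 7.40 and 15.4 with shUHRF1. IFNAR2 (ENSG00000159110.21, chr21:33205282-33265675, plus strand) was at 8.86 and 8.67, 11.0 and 12.7, 11.4 and 10.1, and 9.13 and 12.0 in the same order. In UF1hypo the groups overlapped for both genes, with log2 fold changes of −0.31 (95% interval −1.0 to 0.37, limma adjusted p = 0.542) and −0.03 (−0.50 to 0.44, adjusted p = 0.942). For IFNAR2 in HCT116 the knockdown libraries were both above the controls, at 0.40 (−0.07 to 0.87, adjusted p = 0.882).

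The type II chains were the most abundant pair. IFNGR1 (ENSG00000027697.15, chr6:137197485-137219449, minus strand) was at 24.3 and 27.0 TPM in HCT116 with shScr and 27.6 and 28.1 with shUHRF1, and 30.6 and 27.5 in UF1hypo with shScr and 15.5 and 31.4 with shUHRF1. IFNGR2 (ENSG00000159128.15, chr21:33403413-33479348, plus strand) was at 64.1 and 66.0, 57.7 and 57.5, 53.7 and 51.4, and 34.2 and 51.4 in the same order, and had the highest TPM of the receptor chains in each library. The log2 fold changes on knockdown in UF1hypo were −0.38 for IFNGR1 (95% interval −1.04 to 0.29, limma adjusted p = 0.446) and −0.32 for IFNGR2 (−0.77 to 0.14, adjusted p = 0.344). IFNGR2 overlaps TMEM50B on the other strand, and whether the libraries kept strand was not given in the sources used here.

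In UF1hypo shUHRF1 the receptor values depended on the replicate. Replicate 1 had 0.48 times the level of replicate 2 for IFNAR1, 0.492 times for IFNGR1, 0.664 times for IFNGR2 and 0.758 times for IFNAR2, but 1.01 times for IFNLR1, whose transcript had 54.6% GC against 39.4% to 50.4% in the others. Over all tested genes, the median log2 difference of replicate 1 from replicate 2 ran from −1.01 to 0.56 over 10 equal bins of genes from the lowest to the highest GC content. Without replicate 1 of UF1hypo shUHRF1 the log2 fold changes of IFNAR1, IFNAR2 and IFNGR1 in UF1hypo turned positive, at 0.17, 0.15 and 0.11. Without replicate 2 they were −0.80 for IFNAR1 (limma adjusted p = 0.0122), −0.87 for IFNGR1 (adjusted p = 0.00454), −0.61 for IFNGR2 (adjusted p = 0.00448) and −0.21 for IFNAR2, all under the fold threshold, so the direction for IFNAR1, IFNAR2 and IFNGR1 depended on which of these libraries was kept.

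Interferon-stimulated genes, the antiviral targets of type I and III signalling, were compared with the ligands library by library. The summed TPM of IFNL1, IFNL2 and IFNL3 was 0 and 0.124 in HCT116 with shScr and 0 and 0.123 with shUHRF1, and 1.4 and 0.112 in UF1hypo with shScr and 29.0 and 16.1 with shUHRF1. The median TPM of 30 interferon-stimulated genes was 1.83 and 1.69, 2.1 and 2.54, 27.3 and 26.4, and 106 and 139.6 in the same order. The targets were therefore already above both HCT116 groups in UF1hypo shScr. Their median there was 27.3 in replicate 1, with a ligand sum of 1.4 TPM, and 26.4 in replicate 2, with 0.112 TPM as in HCT116. The target medians and the ligand sums were both highest in UF1hypo shUHRF1. Of the UF1hypo shUHRF1 libraries, replicate 1 had the higher ligand sum with the lower target median (106 against 139.6) but the higher target sum (28170.0 against 22817 TPM), so these 2 libraries give no order. In bulk libraries, fewer cells that express a gene and less RNA per cell cannot be told apart.

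**Figure D2:**
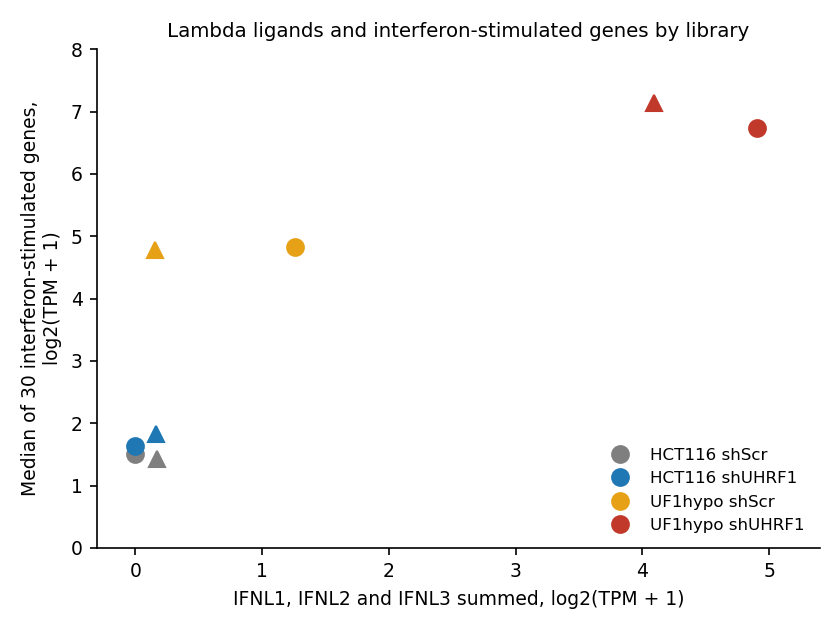
Summed TPM of IFNL1, IFNL2 and IFNL3 (x axis) against the median TPM of 30 interferon-stimulated genes (y axis), both as log2(TPM + 1), 1 point per library (circles replicate 1, triangles replicate 2). The UF1hypo shScr points (orange) lie above the HCT116 points while their ligand sums are 1.4 and 0.112 TPM, and both values are highest in UF1hypo shUHRF1 (red).

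Of the 30 listed interferon-stimulated genes, 24 of 27 tested were called higher in UF1hypo shScr than in HCT116 shScr and none lower. Their median log2 fold change was 2.86 against −0.05 over all tested genes, of which 2.59% were called higher. IFI27 stood at 4.90 and 2.55 TPM in HCT116 shScr and 1098 and 1196 in UF1hypo shScr, and IFITM1, which blocks virus entry, at 2.16 and 2.38 and at 283 and 350.3. Upon knockdown in UF1hypo, 25 of 30 were called higher and none lower, with a median of 2.18 against 0.04 over all tested genes, of which 7.39% were called higher. Some listed genes passed the filter only where they were high, such as MX1 and OAS1 in UF1hypo shScr and RTP4, IFI44L and SAMD9L in UF1hypo shUHRF1, which raises these counts and medians. MX1, an antiviral GTPase, went from 4.22 and 4.49 to 637 and 595, and OAS2, which makes the activator of RNase L, from 1.27 and 0.567 to 54.0 and 74.7. In HCT116 none of 19 tested was called by limma, where 0.0472% of all tested genes were called higher, and the median was 0.27 against −0.03. An unadjusted p below 0.05 was found for 3 of them, and for 810 of all 12704 tested genes. These were IFI27, BST2 and IFI6, with log2 fold changes of 1.44, 1.03 and 0.90. For each, both knockdown libraries were above both controls, for IFI6 at 33.5 and 34.1 against 16.2 and 19.3 TPM. With the HCT116 groups fitted alone 1 was called, and with library weights 2. The test of the difference between the lines called 19 of 30. The listed genes that were not tested in HCT116 entered this test only through UF1hypo libraries, so this count is no independent support. Over all tested genes, the test of the difference called 4.54% with the more positive effect in UF1hypo. The knockdown in UF1hypo and the comparison of the control groups share the UF1hypo shScr libraries.

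The transducers between receptor and target gene moved in part. IRF9 and STAT2 were called higher in UF1hypo shScr than in HCT116 shScr, with log2 fold changes of 2.78 and 1.08, and upon knockdown in UF1hypo, with 1.73 and 1.18. IRF9, the DNA-binding subunit of the complex, was at 3.46 and 4.07 TPM in HCT116 with shScr and 5.71 and 4.85 with shUHRF1, and 30.9 and 32.5 in UF1hypo with shScr and 109 and 106 with shUHRF1. STAT2 was at 24.9 and 25.1, 29.7 and 27.8, 53.7 and 54.1, and 128 and 118 in the same order. The kinases JAK1, JAK2 and TYK2 and STAT3 were not called in any comparison.

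Inhibitors of receptor signalling were described next. Of 9 such genes, USP18, SOCS1 and PTPN1 were called higher upon knockdown in UF1hypo and USP18 alone in UF1hypo shScr against HCT116 shScr, with list medians of −0.04 and 0.43. Over all tested genes, 7.39% and 2.59% were called higher in these comparisons. USP18, which binds IFNAR2 and damps type I signalling, was at 4.23 and 5.08 TPM in HCT116 with shScr and 4.36 and 3.70 with shUHRF1, and 25.7 and 25.8 in UF1hypo with shScr and 127 and 104 with shUHRF1. SOCS1, an inhibitor of JAK kinases, rose from 6.06 and 6.68 to 19.8 and 15.6 on knockdown in UF1hypo.

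Genes that sense nucleic acids and induce ligands were called in part. Of 18 tested, 7 were called higher upon knockdown in UF1hypo (DHX58, IRF7, IFIH1, RIGI, JUN, MYD88 and TICAM1) and 6 in UF1hypo shScr against HCT116 shScr (IRF7, IFIH1, RIGI, DHX58, MYD88 and STING1), with medians of 0.76 and 0.52 and none called lower. The shares called higher over all tested genes were 7.39% and 2.59%. IRF7, the transcription factor that drives later waves of interferon, was at 17.0 and 14.2 TPM in HCT116 with shScr and 19.9 and 15.1 with shUHRF1, and 128 and 149.6 in UF1hypo with shScr and 608 and 407 with shUHRF1. IFIH1, a sensor of double-stranded RNA, was at 4.49 and 4.31, 4.23 and 4.83, 41.4 and 38.8, and 105 and 144 in the same order. DHX58, a relative of that sensor, went from 8.32 and 7.71 to 113 and 86.4 on knockdown in UF1hypo. STING1, the adaptor of cytosolic DNA sensing, was at 12.7 and 16.3 TPM in HCT116 shScr, at 28.8 and 34.6 in UF1hypo shScr and at 17.4 and 13.7 after knockdown there (log2 fold change −0.99, limma adjusted p = 0.0172, just under the fold threshold). The adaptor MAVS, the kinase TBK1 and NFKB1 had log2 fold changes of −0.08, −0.10 and −0.39 in that comparison and were not called. CGAS, the sensor of cytosolic DNA, was listed at 0 in 7 libraries and at 0.0748 in replicate 2 of HCT116 shUHRF1. Several of these sensors are themselves interferon-stimulated.

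Targets associated with type II interferon were followed because IFNG itself was listed at 0. Of 10 listed genes 7 were tested upon knockdown in UF1hypo, and CD74, GBP1, GBP4, GBP5 and HLA-DRB1 were called higher, with a median of 1.08 against 0.04 over all tested genes, of which 7.39% were called higher. GBP1, GBP4 and GBP5 passed the filter only through the knockdown libraries and so had to differ. HLA-DRA and GBP2, also tested, each had a log2 fold change of −0.25 and were not called. CD74, the invariant chain of MHC class II, went from 1.99 and 2.84 to 27.8 and 18.5 TPM, and GBP1, a guanylate-binding protein, from 0.286 and 0.110 to 4.04 and 4.29. In UF1hypo shScr against HCT116 shScr 3 of 4 tested were called higher, HLA-DRA, CD74 and GBP2, which passed the filter only through UF1hypo shScr. Of all tested genes 2.59% were called higher there. CXCL9 and IDO1 were listed at 0 in all libraries, and CIITA did not exceed 0.511. None of the lists of transducers, inhibitors, sensors, receptor chains or type II targets had a member called in HCT116, where 1 gene, IL10RB, had an unadjusted p below 0.05.

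Genes whose profile was most like that of a called ligand were ranked by Pearson's r of log2(TPM + 1) over the 8 libraries among 13780 genes. They were TFF2 (0.998), GPR176 (0.997) and C6orf15 (0.996) for IFNL1, and RUFY4 (0.996), TGFBI (0.994) and IGFL1 (0.990) for IFNL2. For IFNL3 they were IL2RG, GBGT1 and TSPAN32 (1.000 each) and for IFNE NXT2 (0.989), CCDC152 (0.981) and SMIM10L1 (0.974). As the lambda genes were at or near 0 in 6 libraries, these r values rest on the 2 UF1hypo shUHRF1 libraries.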

How the data were processed

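RNA-seq gene tables of 8 libraries were used, 2 in each of 4 groups taken from the sample titles. Per the labels and the methods of the study, the authors used Fastp for trimming, HISAT2 2.0.4 for alignment to GRCh38 and StringTie 2.1.4 for gene abundances. As deposited by the authors, TPM corrects for gene length and gives each library an equal sum, FPKM for gene length and all aligned bases, and coverage is the mean signal per base of a gene, not scaled for depth. Read counts are not among these values, which leaves the counting error of single genes unknown and does not allow a count model such as the authors' DESeq2.

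Identifiers were matched to GENCODE release 44 (60463 of 60649), repeated identifiers (at most 2 in a table) were summed, and protein-coding genes were kept. All libraries entered a single limma 3.58.1 fit (R 4.3.3) on log2(TPM + 1) with the 4 groups as terms, a variance trend and 4 residual degrees of freedom. Genes with TPM above 1 in at least 1 library of a comparison were tested two-sided, and called at a Benjamini-Hochberg adjusted p below 0.05 with an absolute log2 fold change above 1. The comparisons were the knockdown in each line, the difference of these effects, and the control groups of both lines (UF1hypo shScr relative to HCT116 shScr). Aligned bases are coverage times exonic length for genes with a single transcript. RIGI was matched by identifier. Promoters and CpG counts come from the RefSeq table, and transcripts were aligned with Biopython 1.88 under Python 3.11.15.

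The members and the gene lists were chosen with earlier results of these data known. Named are the 10 members, every ligand above 0, IL10RB, UHRF1, and per list and comparison at most the 2 called genes with the largest change whose groups did not overlap. Other genes named here, such as STAT2, PTPN1, TICAM1, CGAS and the overlapping genes, complete a count or were chosen after their values were seen. Alternatives were a pseudocount of 0.1, no filter, a filter on mean TPM, FPKM, median-ratio scaling, quantile normalization, the compared groups alone, a replicate block, library weights, a GC correction in 10 bins, the largest row of each identifier, and each library left out in turn. The fit was tested on simulated data. Not every gene of the signalling lists is reported here.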

Additional observations from a re-analysis of the deposited data

Results flagged for a closer look

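The test of the difference itself called 2 ligands for the effect of the UHRF1 knockdown in the lines. Both passed the TPM filter only through the UF1hypo shUHRF1 libraries, which favours a positive difference, so these calls are no independent support. For IFNL1 the effect in UF1hypo exceeded that in HCT116 by 3.30 on the log2(TPM + 1) scale (limma, adjusted p = 0.00342), with both UF1hypo shUHRF1 libraries above all 6 others. For IFNL3 the difference was 2.92 (limma, adjusted p = 0.00852), again with both libraries above all others. Both genes were at or near 0 in HCT116, so the differences equal the UF1hypo changes and depend on the value added before the logarithm. Groups of 2 libraries do not allow a search for single deviating libraries.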

How the results depend on the processing

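IFNL1 and IFNL3 were called for the knockdown in UF1hypo under every alternative, with log2 fold changes of 2.39 (FPKM) to 5.44 (pseudocount of 0.1) and 1.97 to 5.59; those of IFNL2 and IFNE were 1.01 and 1.07 with FPKM and 3.39 and 2.95 with the pseudocount. For that knockdown the members called numbered 4, but 2 with quantile normalization, 2 with the groups compared alone, 2 with library weights, 3 with a pseudocount of 0.1, and 2 to 3 with a library left out; genes called numbered 1162, but 748 with FPKM, 563 with the groups alone, 539 with library weights, and 655 to 2255 with a library left out, the lowest without replicate 1 of UF1hypo shScr and the highest without replicate 2 of UF1hypo shUHRF1. For the knockdown in HCT116 the genes called numbered 9, but 30 with a pseudocount of 0.1, 2 without filter, 3 with median-ratio scaling, 89 with the groups alone, 1 with the replicate block, 101 with library weights, 71 with the GC correction, and 0 with any library left out. Interferon-stimulated genes called there numbered 0, but 1 with the groups alone, 2 with library weights and 1 with the GC correction. For the difference the genes called numbered 702, but 448 with the pseudocount, 419 with library weights, 1061 with the GC correction, and 171 (without replicate 2 of HCT116 shUHRF1) to 2142 (without replicate 2 of UF1hypo shUHRF1) with a library left out. The members called for it numbered 2, but 1 with the pseudocount, where IFNL1 was at 5.44 with a limma adjusted p of 0.0669 (0.00161 to 0.0669 over the alternatives), 3 with the GC correction, and 1 to 3 with a library left out; interferon-stimulated genes numbered 19, and 12 to 26 with a library left out. For UF1hypo shScr against HCT116 shScr the genes called numbered 455, and 149 to 190 with a library left out. The causes of these shifts were not tested, except that leaving out a library leaves fewer residual degrees of freedom.

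Deviations of same-numbered replicates had correlations of −0.40 to 0.05 between groups, so the numbers were not taken as pairs. The value of −0.40 was between UF1hypo shScr and UF1hypo shUHRF1. Their replicate differences followed GC content in opposite directions (Spearman's rho of −0.51 and 0.81). With the replicate number as a block, 1110, 471 and 369 genes were called for the knockdown in UF1hypo, the difference and the control groups, and the members called stayed at 4, 2 and 0 (0 in HCT116). The difference could not be fitted with the groups alone, and IFNL2 had no difference under the filter on mean TPM. With the lambda genes between 0 and 0.774 TPM outside UF1hypo shUHRF1, the depth does not show whether they were silent there.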
